A study of Homo sapiens with 6 samples.

Results

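Glucose uptake, glycolysis and lactate formation were followed through 10 genes, SLC2A1, HK1, HK2, PFKP, ALDOA, GAPDH, PGK1, ENO1, PKM and LDHA, chosen by name, out of 20030 genes in the deposited count table. These genes and the further lists were chosen with earlier results of these data known. All 10 had enough reads to be tested, and the smallest count of any of them in any library was 1304 (HK2). The cells are labelled NCI-H929, an established human multiple myeloma line. The study made 6 RNA-seq libraries from them, 3 of a stable IGF2BP1 knockdown line (IGF2BP1-KD) and 3 of the matching negative control line (IGF2BP1-NC). IGF2BP1 is an RNA-binding protein that reads N6-methyladenosine on transcripts, among them MYC mRNA. The knockdown shRNA is expressed from the human U6 promoter of a lentiviral vector, and transduced cells were selected with puromycin without a stated cloning step. What vector the control line carries is not given in the sources used here. The methods list more than 1 shRNA target, and which one these libraries carry is not given in the sources used here. Nothing in the labels says that libraries of a group came from separate cultures, so p-values measure the spread between these libraries, which may be technical.

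Glucose enters a cell through transporters of the GLUT family, is phosphorylated by a hexokinase, and is split and oxidized by the enzymes of glycolysis to pyruvate. Lactate dehydrogenase turns pyruvate into lactate, which regenerates the NAD+ that the GAPDH step needs, and proliferating tumour cells run this route even with oxygen present. Many of its genes are textbook targets of MYC, which binds E-boxes (CACGTG), and of HIF-1, whose response element has the core ACGTG or GCGTG. Each step can be served by several isozymes, whose balance differs between tissues. Red cell precursors, for instance, make the PKLR form of pyruvate kinase and BPGM, which forms 2,3-bisphosphoglycerate.

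E-boxes in promoter windows of the 10 genes are shown as background on their sequence. In RefSeq promoter windows (GRCh38.p14, 250 bases before to 50 bases after a start site), CACGTG was found for 4 of the 10 genes, HK2, ALDOA, GAPDH and LDHA, and it occurs in 8.77% of all genes with such a window. Each sequence is written 5′ to 3′ on the strand of its gene, with the E-box in capitals.
HK2, chr2:74834966-74834991, plus strand: ttgctgcgccCACGTGggagggagcc
HK2, chr2:74835011-74835036, plus strand: ccggcgagagCACGTGgagagaatcg
ALDOA, chr16:30064375-30064400, plus strand: gcagggaggcCACGTGatccgagtcc
GAPDH, chr12:6535173-6535198, plus strand: tctgcggggtCACGTGtcgcagagga
LDHA, chr11:18394368-18394393, plus strand: actcccagcgCACGTGgagcagtctg
LDHA, chr11:18394466-18394491, plus strand: gcccgactcaCACGTGggttcccgca
Counted from the RefSeq start site of its window, the motif begins 194 and 149 bases before it in HK2 and 112 bases in ALDOA. It begins 81 bases before it in GAPDH, and 185 and 87 bases in LDHA. In HK2, ALDOA and GAPDH these start sites are not the outermost ones, as the motifs lie inside the GENCODE gene intervals given below. The LDHA motifs lie before the start of its interval. The core ACGTG, which every CACGTG contains, was found on either strand for 6 of the 10 genes (HK2, PFKP, ALDOA, GAPDH, PGK1 and LDHA), against 24.9% of all genes. GCGTG was found for 8 of them (SLC2A1, HK1, HK2, PFKP, PGK1, ENO1, PKM and LDHA), against 40.6% of all genes. The 10 genes had 23 windows in all, up to 7 for 1 gene (HK1), and a gene with more windows has more bases in which a motif can occur. Of the genes with CACGTG, HK2 and GAPDH were lower in IGF2BP1-KD cells with all 6 libraries, and ALDOA and LDHA did not pass. ENO1 was lower and had no CACGTG in its window. These are matches of letters, and no binding was measured. A part of MYC in the results was not tested.

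Before the results, the targeted gene and the libraries were checked. Levels are given in FPKM, that is, counts scaled by gene length and by the library total. IGF2BP1 was at 48.1, 43.7 and 49.1 FPKM in the control libraries (IGF2BP1-NC, replicates 1 to 3) against 13.5, 12.9 and 12.8 FPKM in the knockdown libraries (IGF2BP1-KD, replicates 1 to 3), 72.3% lower. Values are given in this order throughout. Total counts per library were 16885449 to 18112179. Markers did not follow the label of the line. Of 14 plasma cell markers, 7 had at most 3 counts in every library, TNFRSF17, IRF4, CD38 and CD27 among them. In every library 3 of the 14 were above 1 CPM, while all 16 erythroid markers, GATA1 and KLF1 included, were above 1 CPM in every library. CPM are counts scaled by the library's total over the tested genes and by edgeR's TMM factor. Granulocyte markers, led by PRG2 and MS4A3, summed to 17.9 to 24.4 FPKM in the controls against 123, 141 and 315 FPKM in IGF2BP1-KD libraries. Of these 10 markers 5 were tested and 3 passed, all higher, beside 13.7% of all tested genes that were higher. Monocyte and lymphocyte markers summed to 24.5 to 39.5 FPKM and 32.6 to 41.8 FPKM. A pair of libraries stood apart. In IGF2BP1-NC replicate 1, the stress gene DDIT4 was 12-fold, the glucose uptake inhibitor TXNIP 3.01-fold and the serine synthesis enzyme PSAT1 3.01-fold the mean FPKM of the other IGF2BP1-NC libraries. IGF2BP1-KD replicate 3 had the highest granulocyte sum. For the 10 genes, the pathway and some of the other genes and lists, results that these libraries move are given without them as well. In bulk RNA, fewer cells of a type and less RNA per cell cannot be told apart.

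GAPDH, ENO1 and HK2 were lower in IGF2BP1-KD cells, and none of the 10 genes was higher, at an edgeR adjusted p under 0.05. At an unadjusted edgeR p under 0.05, PGK1 was lower and PKM higher as well, and with DESeq2 PKM was higher. The falls were small, 25.2% for GAPDH, 20.7% for ENO1 and 16.5% for HK2. Among all 11994 tested genes, 28.2% passed by the same rule, 14.5% lower and 13.7% higher. The 10 genes had a median log2 fold change of -0.14, beside -0.0048 for all tested genes, and 8 of the 10 had a negative value. The test was edgeR's quasi-likelihood test on counts (two-sided), with adjustment over all tested genes. There was no overlap between groups in CPM for 5 of the 10 genes, HK2, GAPDH, PGK1, ENO1 and PKM, which is close to the 45.6% of all tested genes. Together the 10 genes took 0.958%, 1.05% and 1.05% of all counts in the controls against 0.899%, 0.887% and 0.881% in IGF2BP1-KD libraries. Without GAPDH and ENO1, the share was 0.463% and 0.456% in the means of IGF2BP1-NC and IGF2BP1-KD.

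**Figure D1:**
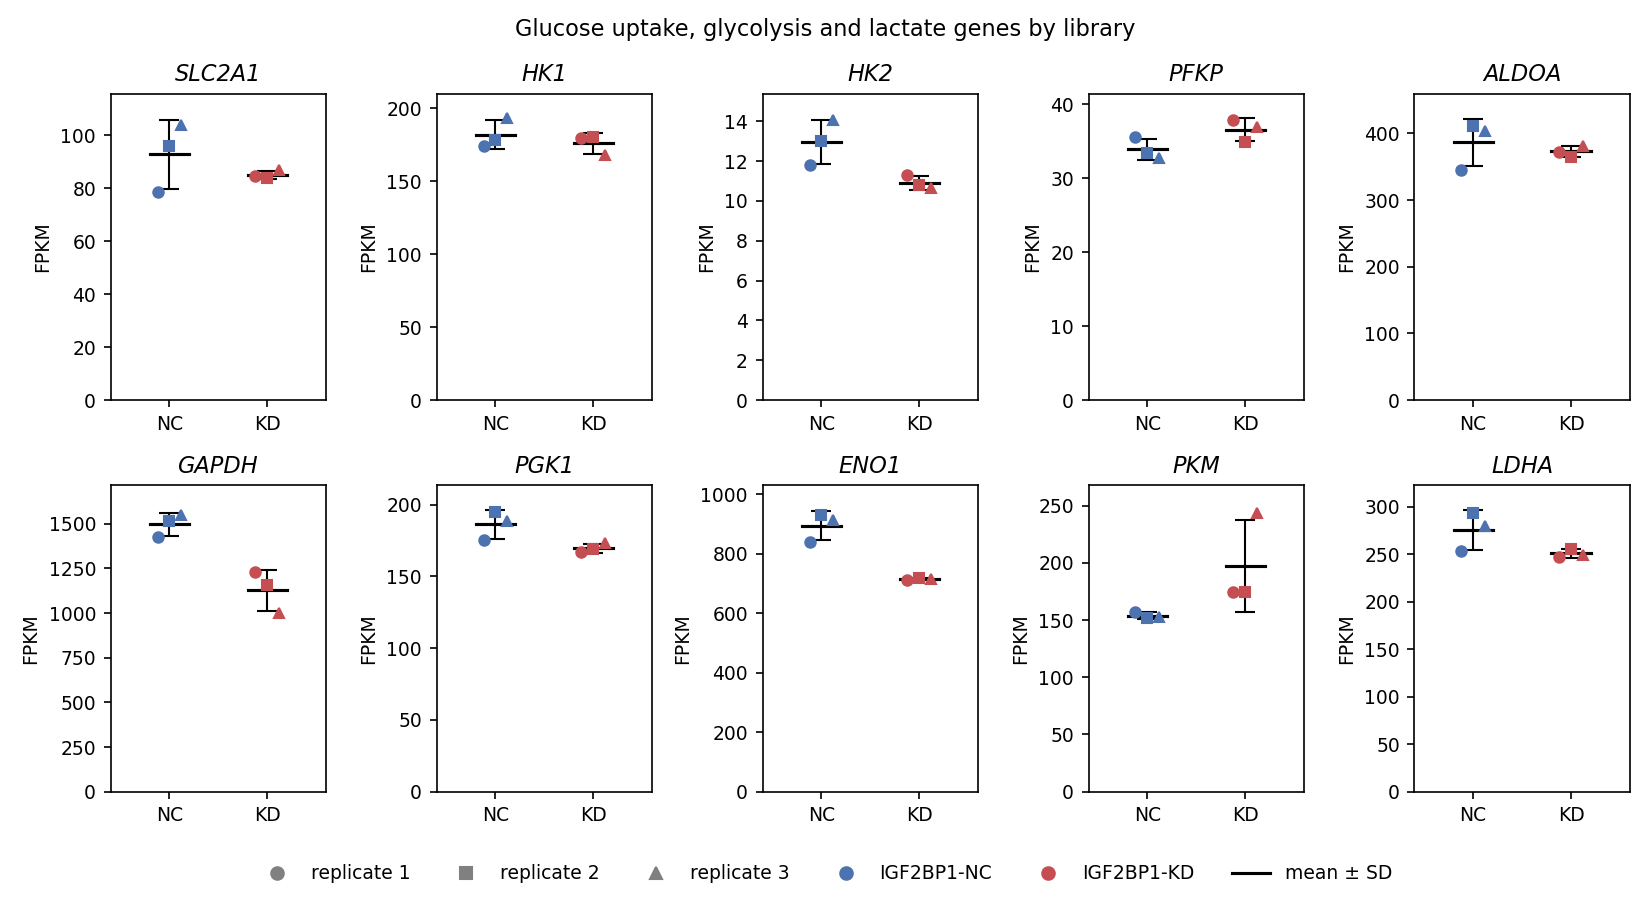
Level in FPKM (y axis, from 0) of each of the 10 genes in the IGF2BP1-NC (blue) and IGF2BP1-KD (red) libraries, with marker shape for the replicate and black lines for mean ± SD (n = 3). GAPDH, ENO1 and HK2 lie lower in all 3 IGF2BP1-KD libraries, and PKM is highest in IGF2BP1-KD replicate 3.

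The levels per length (FPKM) gave nearly the same order in both groups. In IGF2BP1-NC cells GAPDH stood highest, at rank 22 of all genes listed, followed by ENO1, ALDOA, LDHA, PGK1, HK1, PKM, SLC2A1, PFKP and HK2, and only the ranges of the neighbours PGK1 and HK1 overlapped. In IGF2BP1-KD cells GAPDH was at rank 48 and still highest of the 10 genes. There PKM, HK1 and PGK1 followed LDHA with overlapping ranges. The span within the pathway was therefore wide, from 1498 ± 64.0 FPKM for GAPDH to 13.0 ± 1.12 FPKM for HK2 in IGF2BP1-NC cells (SD, n = 3).

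SLC2A1 (NCBI gene 6513, chr1:42925353-42958893, minus strand of GRCh38, 10 exons) encodes GLUT1, the basal glucose transporter of most cells and of red cells. Its FPKM was 78.6, 96.1 and 104 in the controls against 84.4, 84.0 and 86.9 in IGF2BP1-KD libraries. The IGF2BP1-KD libraries sat close together and within the wide range of the controls, whose replicate 1 was the lowest of all 6. The log2 fold change was -0.14 (SE 0.098, edgeR adjusted p = 0.321), and it was -0.25 (SE 0.055, edgeR adjusted p = 0.0037) without that library. Without IGF2BP1-NC replicate 3, the highest control, it was -0.042 (edgeR adjusted p = 0.775). A second transporter, SLC2A3 (GLUT3), was at 43.4, 38.8 and 36.0 FPKM in IGF2BP1-NC and 24.9, 25.3 and 22.7 FPKM in IGF2BP1-KD cells, with no overlap. SLC2A3 fell by 0.70 on the log2 scale (SE 0.075, edgeR adjusted p = 1.2e-04) and passed in all 6 fits that leave out 1 library. Its close paralog SLC2A14, at a far lower level, can share reads with it.

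HK1 (NCBI gene 3098, chr10:69269984-69401884, plus strand, 18 exons) and HK2 (NCBI gene 3099, chr2:74834127-74893359, plus strand, 18 exons) trap glucose in the cell by phosphorylating it. HK1, the form of most tissues, was at 174, 178 and 193 FPKM in the controls against 179, 181 and 168 FPKM in IGF2BP1-KD libraries, so the groups overlapped (log2 fold change -0.060, SE 0.066, edgeR adjusted p = 0.530). The HK1 value was -0.10 without IGF2BP1-NC replicate 1, -0.024 without IGF2BP1-KD replicate 3 and -0.0066 without IGF2BP1-NC replicate 3. HK2, the form that is inducible and often raised in tumours, was at 11.8, 13.0 and 14 FPKM against 11.3, 10.8 and 10.6 FPKM. Every IGF2BP1-KD library was below every IGF2BP1-NC library, with a narrow gap to IGF2BP1-NC replicate 1. HK2 fell by 0.26 on the log2 scale (SE 0.079, edgeR adjusted p = 0.0305). The call was kept without IGF2BP1-NC replicate 1 (log2 fold change -0.33, edgeR adjusted p = 0.0022) and lost without any other single library, where the edgeR adjusted p lay between 0.0579 and 0.113. HK3 and HKDC1 stayed below 0.3 FPKM in every library and were not tested. ADPGK, an ADP-dependent glucokinase of the endoplasmic reticulum, rose from 11.2 ± 0.716 to 14.8 ± 0.180 FPKM (SD, n = 3, log2 fold change 0.38).

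PFKP (NCBI gene 5214, chr10:3066333-3137718, plus strand, 22 exons) is the platelet form of phosphofructokinase, the committed step of glycolysis. Its FPKM was 35.5, 33.4 and 32.8 in the controls against 37.9, 34.9 and 37.0 in IGF2BP1-KD libraries. The groups overlapped at 1 library each, and the difference did not pass the test (log2 fold change 0.10, SE 0.059, edgeR adjusted p = 0.237). The liver form PFKL was at 46.2 ± 1.72 and 45.1 ± 0.736 FPKM (log2 fold change -0.046, edgeR adjusted p = 0.590). The muscle form PFKM, at a lower level, fell from 10.5 ± 0.386 to 8.03 ± 0.635 FPKM (SD, n = 3, log2 fold change -0.40), and its groups did not overlap. GPI, the isomerase just before this step, fell from 34.6 ± 1.66 to 28.0 ± 1.00 FPKM (log2 fold change -0.32).

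ALDOA (NCBI gene 226, chr16:30064164-30070457, plus strand, 10 exons) is the aldolase of muscle and red cells, which splits fructose 1,6-bisphosphate. It was at 346, 411 and 403 FPKM in the controls against 373, 365 and 382 FPKM in IGF2BP1-KD libraries. IGF2BP1-NC replicate 1 was the lowest and the other controls were the highest of the 6, so the groups overlapped (log2 fold change -0.062, SE 0.076, edgeR adjusted p = 0.577). Without that library the log2 fold change was -0.15 (edgeR adjusted p = 0.0347), and without IGF2BP1-NC replicates 2 or 3 it was -0.0091 or -0.023 (edgeR adjusted p = 0.946 or 0.876). ALDOC, the brain form, fell from 65.6 ± 7.59 to 42.7 ± 7.40 FPKM (SD, n = 3, log2 fold change -0.63, SE 0.14), and its edgeR adjusted p was 0.0521 at most among the fits that leave out 1 library. TPI1, which interconverts the products of aldolase, was at 301, 354 and 358 FPKM and at 354, 339 and 328 FPKM.

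GAPDH (NCBI gene 2597, chr12:6534512-6538374, plus strand, 9 exons) carries out the oxidation step and is widely used as a reference gene. Its FPKM was 1427, 1515 and 1552 in the controls against 1227, 1156 and 1003 in IGF2BP1-KD libraries. The highest IGF2BP1-KD library was below the lowest control, and IGF2BP1-KD replicate 3 was the lowest of the 6. GAPDH fell by 0.42 on the log2 scale (SE 0.080, edgeR adjusted p = 0.0034) and passed in all 6 fits that leave out 1 library, with log2 fold changes from -0.48 to -0.34. The latter value was that without IGF2BP1-KD replicate 3. GENCODE release 44 names 65 pseudogenes after GAPDH, the most for any of the 10 genes, and 1 to 6 after HK2, ALDOA, PGK1, ENO1, PKM and LDHA. None of them is in the count table, so how reads shared with them were assigned is uncertain.

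Because GAPDH is often used to scale other measurements, its FPKM was also divided by that of 16 other commonly used reference genes, a comparison added after the values had been seen. The ratio was lower in all 3 IGF2BP1-KD libraries than in all 3 IGF2BP1-NC libraries for 16 of the 16 genes. All 16 ratios share the same GAPDH values, so they are not separate checks of its fall. The difference in mean log2 ratio ranged from -0.16 for SDHA to -0.78 for B2M. Among these 16 genes, B2M was higher and SDHA and PPIA were lower in IGF2BP1-KD cells, and the list had a median log2 fold change of 0.063. B2M, SDHA and PPIA passed in 3, 4 and 1 of the 6 fits that leave out 1 library, and in no case without IGF2BP1-KD replicate 3. ACTB, encoding beta-actin, was at 1361, 1550.1 and 1397 FPKM against 1645, 1565 and 1571 FPKM (log2 fold change 0.14, edgeR adjusted p = 0.149). GAPDH per ACTB was 1.05, 0.977 and 1.11 in the controls against 0.746, 0.738 and 0.638 in IGF2BP1-KD libraries.

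PGK1 (NCBI gene 5230, chrX:77910739-78129295, plus strand, 11 exons) makes the first ATP of glycolysis. Its FPKM was 175, 195 and 189 in the controls against 167, 169 and 173 in IGF2BP1-KD libraries. The groups did not overlap, but the gap to IGF2BP1-NC replicate 1 was small and the test was not passed (log2 fold change -0.15, SE 0.064, edgeR adjusted p = 0.106). Without IGF2BP1-NC replicate 1 the log2 fold change was -0.20 (edgeR adjusted p = 0.0102). The mutase PGAM1, which follows it, fell from 85.2 ± 3.55 to 66.9 ± 0.465 FPKM (SD, n = 3, log2 fold change -0.36, edgeR adjusted p = 0.0015). BPGM, the bisphosphoglycerate mutase of red cells, fell from 8.90 ± 0.267 to 6.69 ± 1.21 FPKM, with IGF2BP1-KD replicate 3 the lowest, and passed in 2 of the 6 fits that leave out 1 library. GPI and PGAM1 were named after their values had been seen.

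ENO1 (NCBI gene 2023, chr1:8861000-8879190, minus strand, 12 exons) is the ubiquitous enolase, which forms phosphoenolpyruvate. It was at 839.7, 930.4 and 914 FPKM in the controls against 711, 719.9 and 714 FPKM in IGF2BP1-KD libraries. The IGF2BP1-KD libraries lay within 10 FPKM of each other and far below all controls. ENO1 fell by 0.34 on the log2 scale (SE 0.063, edgeR adjusted p = 0.0032) and passed in all 6 fits that leave out 1 library, with log2 fold changes from -0.39 to -0.30. The neuronal form ENO2 had a log2 fold change of 0.46 (SE 0.15, edgeR adjusted p = 0.0524) and was highest in IGF2BP1-KD replicate 3, at 1.48-fold the mean of the other IGF2BP1-KD libraries. Without that library the log2 fold change of ENO2 was 0.25. The muscle form ENO3 rose from 3.58 ± 0.922 to 5.26 ± 0.417 FPKM (SD, n = 3, log2 fold change 0.55), a rise that passed in 2 of the 6 fits that leave out 1 library.

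PKM (NCBI gene 5315, chr15:72199029-72231819, minus strand, 11 exons) encodes the pyruvate kinase of most tissues and tumours, with the M1 and M2 forms made by splicing, which counts per gene do not separate. Its FPKM was 157, 151.5 and 152 in the controls against 174, 174 and 244 in IGF2BP1-KD libraries. All IGF2BP1-KD libraries were above all controls, and replicate 3 was 1.40-fold the mean of the other IGF2BP1-KD libraries. The log2 fold change was 0.35 (SE 0.12, edgeR adjusted p = 0.0655), and 0.17 (edgeR adjusted p = 0.0825) without IGF2BP1-KD replicate 3. PKM passed with DESeq2 (adjusted p = 0.0077), where 11.9% of all genes were higher, and, in edgeR, without IGF2BP1-KD replicate 1 (adjusted p = 0.0443) or replicate 2 (adjusted p = 0.0387). The erythroid and liver kinase PKLR ran the other way in that library. It was at 64.2, 66.5 and 72 FPKM in IGF2BP1-NC and 78.0, 75.9 and 51.0 FPKM in IGF2BP1-KD cells. PKM in FPKM was thus 2.24-fold and 2.30-fold PKLR in IGF2BP1-KD replicates 1 and 2 and 4.78-fold in replicate 3. The same library had the highest granulocyte marker sum, 315 FPKM, and the part of that sum in the PKM value was not tested.

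LDHA (NCBI gene 3939, chr11:18394560-18408425, plus strand, 8 exons) reduces pyruvate to lactate. Its FPKM was 253, 294 and 280.1 in the controls against 247, 256 and 249.6 in IGF2BP1-KD libraries. The groups overlapped through IGF2BP1-NC replicate 1 alone (log2 fold change -0.15, SE 0.070, edgeR adjusted p = 0.135), and without it the log2 fold change was -0.22 (edgeR adjusted p = 0.0064). Without IGF2BP1-NC replicate 2, the highest control, it was -0.093 (edgeR adjusted p = 0.365). LDHB, whose subunit favours the reverse reaction, was the more abundant of the pair per length, at 393, 438 and 421 FPKM against 323, 339 and 308 FPKM. LDHB fell by 0.38 on the log2 scale (SE 0.068, edgeR adjusted p = 0.0023), without overlap. Of 12 genes of lactate handling other than LDHA, 5 could be tested. BSG, the chaperone of the lactate transporters, rose from 187 ± 10.5 to 220.04 ± 7.14 FPKM (log2 fold change 0.22, passing in 3 of the 6 fits that leave out 1 library), and the transporter SLC16A1 was at 54.6 ± 2.88 and 54.4 ± 1.65 FPKM (log2 fold change -0.017, edgeR adjusted p = 0.850). LDHD, the D-lactate dehydrogenase, rose from a level below 0.2 FPKM and passed in 1 of those 6 fits.

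**Figure D2:**
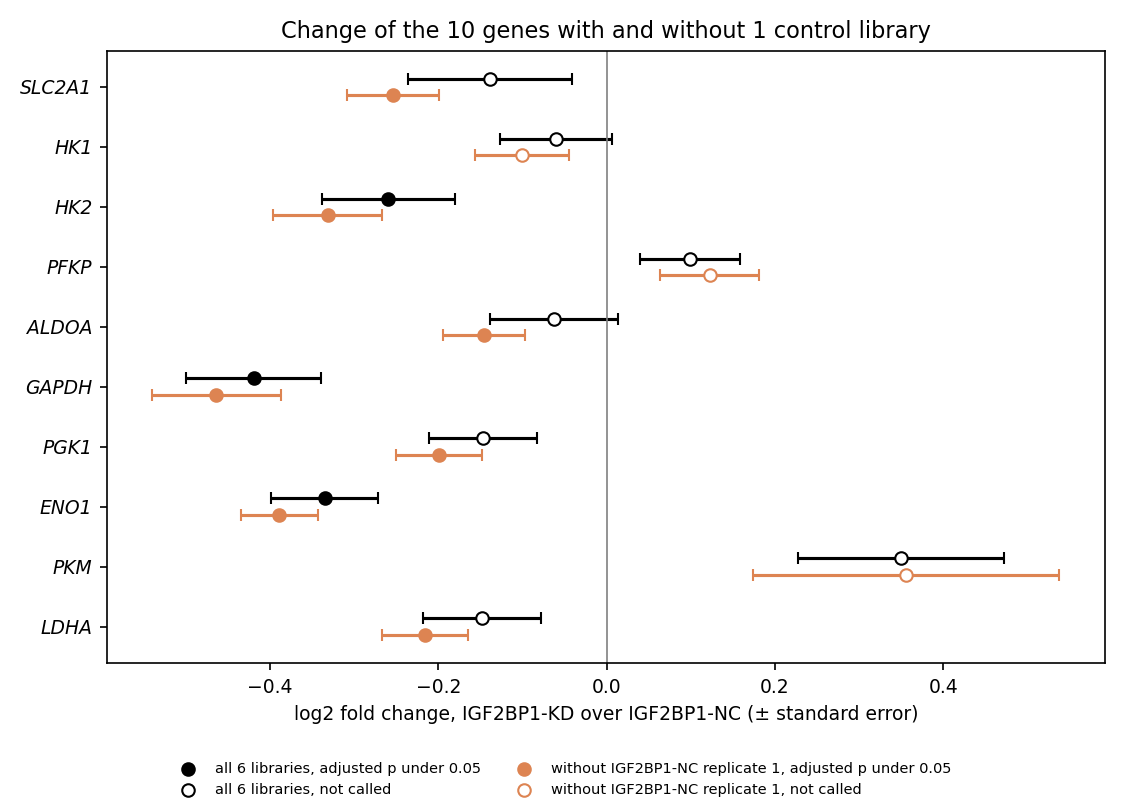
Log2 fold change of IGF2BP1-KD over IGF2BP1-NC (x axis, ± standard error) for the 10 genes, with all 6 libraries (black) and without IGF2BP1-NC replicate 1 (orange), filled where the edgeR adjusted p was under 0.05. Leaving that library out raises the number of genes called lower from 3 to 7.

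The number of the 10 genes that passed changed with the control libraries included. IGF2BP1-NC replicate 1 was the lowest of the controls for 8 of the 10 genes and the highest for the other two, PFKP and PKM, whereas over all tested genes it was the lowest for 38.5% and the highest for 38.6%. Without it 7 of the 10 genes were lower, SLC2A1, HK2, ALDOA, GAPDH, PGK1, ENO1 and LDHA, beside 16.9% of all tested genes (15.8% were higher), and the median log2 fold change of the 10 genes was -0.21. Without IGF2BP1-NC replicates 2 or 3 the median was -0.099 or -0.085, and GAPDH and ENO1 alone were lower. Without IGF2BP1-KD replicate 3, GAPDH and ENO1 alone were lower, beside 10.3% of all tested genes (10.1% were higher). The sign of the log2 fold change was the same for each of the 10 genes in all alternative fits.

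**Figure D3:**
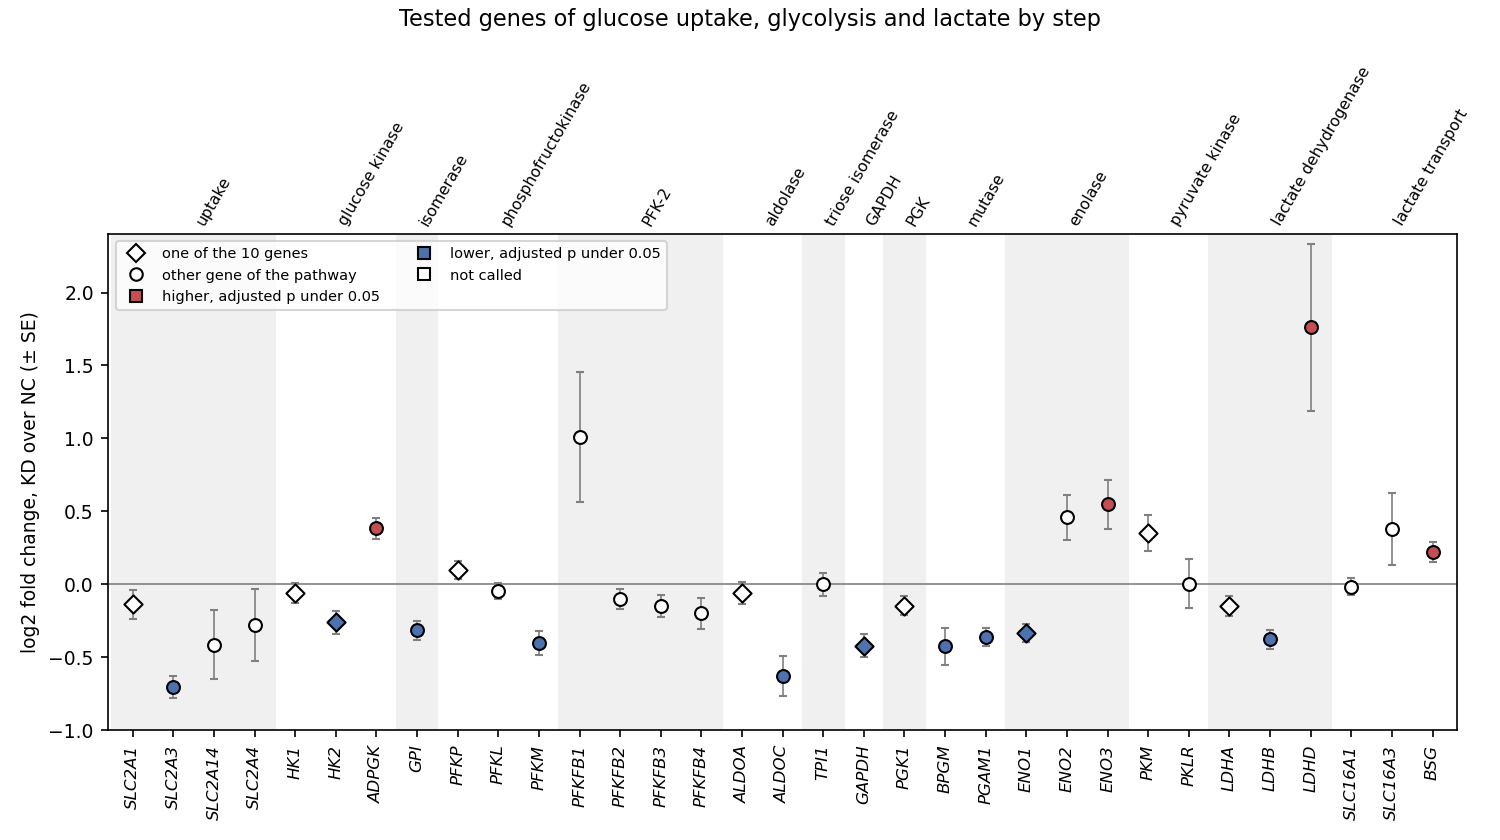
Log2 fold change of IGF2BP1-KD over IGF2BP1-NC (y axis, ± SE) of the 33 tested genes of the pathway, ordered along the x axis by step, with diamonds for the 10 genes, circles for the others, blue for lower and red for higher at an edgeR adjusted p under 0.05. Lower genes occur from uptake through to lactate dehydrogenase, and SLC2A3, at -0.70, is the lowest of them.

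Read along the whole pathway, 49 genes of glucose uptake, glycolysis and lactate handling were listed and 33 were tested. Of these 33 genes, 10 were lower (GAPDH, ENO1, HK2, SLC2A3, ALDOC, BPGM, PFKM, PGAM1, GPI and LDHB) and 4 were higher (ADPGK, ENO3, BSG and LDHD). Among all tested genes, 14.5% were lower and 13.7% higher. The 18 tested genes of glycolysis outside the 10 had 6 lower and 2 higher and a median log2 fold change of -0.17. Without IGF2BP1-NC replicate 1 the counts over the 33 genes were 15 lower and 4 higher, beside 16.9% and 15.8% of all tested genes. Without IGF2BP1-KD replicate 3 they were 8 lower and 1 higher, beside 10.3% and 10.1% of all tested genes. Of the 16 erythroid markers, 7 were lower and 3 higher, beside the same 14.5% and 13.7%, and their median log2 fold change was -0.23. The part of erythroid markers in these results was not tested.

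Isozyme balance was read as the share of a step's summed FPKM that 1 gene takes in a library. SLC2A1 took 64.4%, 71.3% and 74.3% of the sum of SLC2A1 and SLC2A3 in the controls against 77.2%, 76.8% and 79.3% in IGF2BP1-KD libraries. LDHA took 39.2%, 40.2% and 40.0% of lactate dehydrogenase against 43.3%, 43.0% and 44.7%. ALDOA took 85.7%, 85.0% and 85.9% of aldolase against 88.1%, 89.6% and 91.5%. In each of these steps the second form fell and the groups did not overlap.

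PFKP took 37.4% ± 1.22 and 40.8% ± 0.848 of phosphofructokinase in IGF2BP1-NC and IGF2BP1-KD cells (SD, n = 3). HK1 took 93.3% and 94.0% of hexokinase, HK2 6.64% and 5.84%, and ENO1 98.6% and 97.5% of enolase in the group means. PKM took 71.0%, 69.5% and 67.9% against 69.1%, 69.7% and 82.7% of pyruvate kinase, so its higher mean came from IGF2BP1-KD replicate 3. In a two-sided exact permutation test each of these shares except that of PKM reached p = 0.1, the smallest p that 3 against 3 libraries allow, and p was 0.6 for PKM. After adjustment over the 8 shares p was 0.114 (exact permutation test), and 0.6 for PKM, so none could pass 0.05 in this design.

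The regulators of the pathway came next. Of 19 tested genes encoding HIF-1, MYC, their partners and other regulators of glucose use, 5 were lower (MAX, MLXIP, MYC, ARNT and EGLN2) and MXI1 was higher. Among all tested genes, 14.5% were lower and 13.7% higher. Without IGF2BP1-NC replicate 1, 5 genes of this list were lower and 3 higher, beside 16.9% and 15.8% of all tested genes. The median log2 fold change of the list was -0.14 with all 6 libraries and -0.041 without that library. MYC was at 55.5, 46.4 and 47.9 FPKM in the controls against 40.1, 37.6 and 33.8 FPKM in IGF2BP1-KD libraries, without overlap. MYC fell by 0.43 on the log2 scale (SE 0.080, edgeR adjusted p = 0.0028). MAX, its binding partner at E-boxes, was at 19.7, 20.8 and 18.5 FPKM against 11, 10.4 and 11.6 FPKM, a fall of 44.4% (log2 fold change -0.85, edgeR adjusted p = 4.8e-05). MXI1, which competes with MYC for MAX, rose by 0.39 on the log2 scale and passed in 2 of the 6 fits that leave out 1 library. MLXIP, a glucose-sensing factor, fell from 27.7 ± 2.57 to 19.8 ± 1.05 FPKM.

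TXNIP, a target of MLXIP that restrains glucose uptake, was at 132, 52.9 and 34.7 FPKM in the controls against 81.9, 88.5 and 92.3 FPKM in IGF2BP1-KD libraries. The IGF2BP1-KD libraries lay inside the range of the controls, and no difference passed the test (log2 fold change 0.26, SE 0.55, edgeR adjusted p = 0.767). Without IGF2BP1-NC replicate 1 TXNIP was 0.98 higher on the log2 scale (edgeR adjusted p = 0.0346), and without IGF2BP1-NC replicate 3 its log2 fold change was -0.072.

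**Figure D4:**
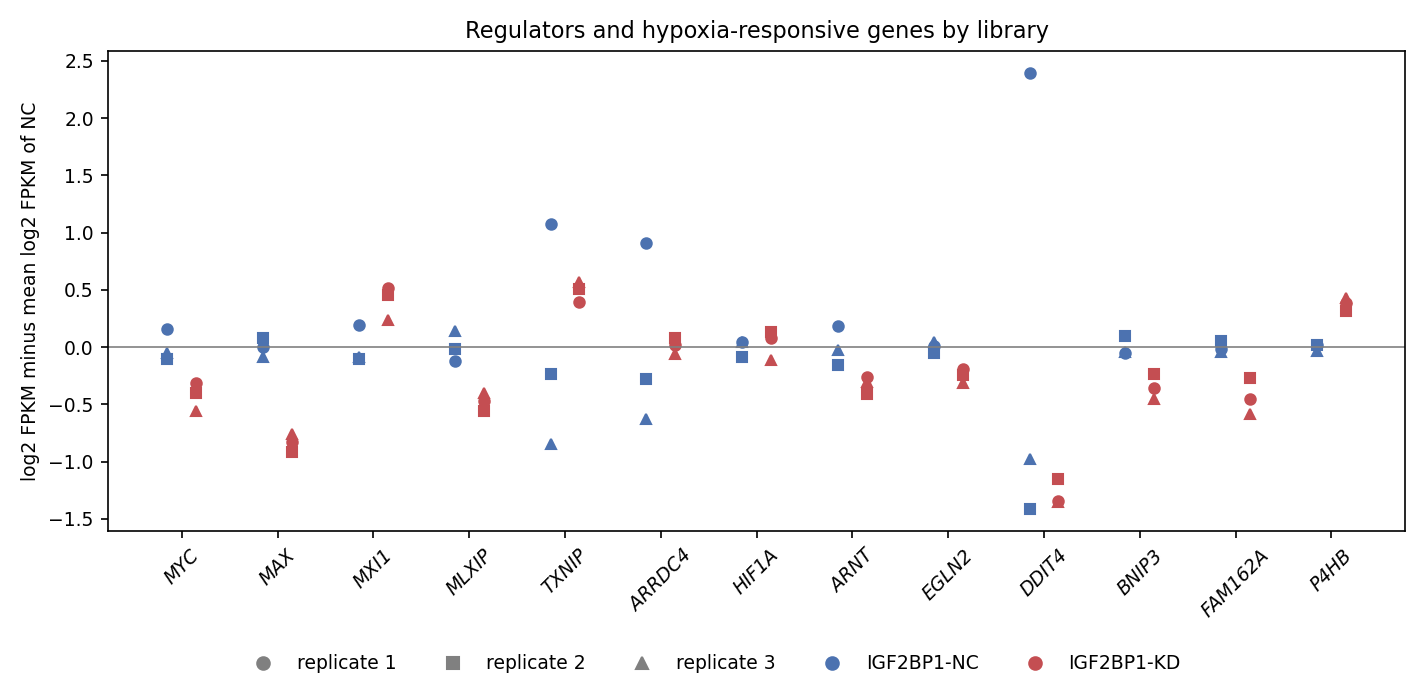
Log2 FPKM of regulators and of genes that respond to low oxygen, minus the mean log2 FPKM of the IGF2BP1-NC libraries (y axis), for each IGF2BP1-NC (blue) and IGF2BP1-KD (red) library, with marker shape for the replicate. MYC, MAX, MLXIP and ARNT lie lower in all IGF2BP1-KD libraries, and DDIT4, TXNIP and ARRDC4 are high in IGF2BP1-NC replicate 1.

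HIF1A, the oxygen-regulated subunit of HIF-1, was at 12, 11 and 12 FPKM in IGF2BP1-NC and 12.3, 12.7 and 10.8 FPKM in IGF2BP1-KD cells (log2 fold change 0.026, SE 0.082, edgeR adjusted p = 0.841). Its partner ARNT fell by 0.34 on the log2 scale and EGLN2, a prolyl hydroxylase of the oxygen sensor, by 0.26. Of 20 tested HIF targets outside glycolysis, 5 were higher and 2 lower, beside 13.7% and 14.5% of all tested genes. Their median log2 fold change was 0.10. Without IGF2BP1-NC replicate 1, 7 genes of this list were higher and 2 lower, beside 15.8% and 16.9% of all tested genes. The median was then 0.19. The prolyl hydroxylase subunits of collagen, P4HB (0.37), P4HA2 (0.50) and P4HA1 (0.27), had positive log2 fold changes and passed, as did CA12. P4HB passed in all 6 fits that leave out 1 library, P4HA2 in 4, CA12 in 3 and P4HA1 in 1 of them. CA12 was at a low level, 0.137, 0.0818 and 0.118 FPKM in IGF2BP1-NC and 0.252, 0.211 and 0.668 FPKM in IGF2BP1-KD cells. The mitochondrial proteins BNIP3 and FAM162A fell by 0.36 and 0.44. EGLN2 and P4HA1 were named after their values had been seen.

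The routes that leave glycolysis were counted in the same way. For pyruvate entry into mitochondria, 4 of 13 tested genes were lower and 1 was higher, beside 14.5% and 13.7% of all tested genes. The median log2 fold change of these 13 genes was -0.17. MPC2, a subunit of the mitochondrial pyruvate carrier, fell from 41.4 ± 2.31 to 29.5 ± 3.04 FPKM (SD, n = 3, log2 fold change -0.50). PDK1, which switches off pyruvate dehydrogenase and is a HIF target, fell from 4.81 ± 0.0403 to 3.42 ± 0.427 FPKM (log2 fold change -0.50). PDHB and DLD, subunits of that complex, fell by 0.32 and 0.20 and passed in 2 and 3 of the 6 fits that leave out 1 library, and PDK2, below 0.7 FPKM throughout, rose by 1.92 on the log2 scale.

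In the pentose phosphate pathway, 4 of 9 tested genes were lower, beside 14.5% of all tested genes, with a median log2 fold change of -0.19. The 4 genes were TKT, the transketolase that links the pathway to glycolysis (log2 fold change -0.30, edgeR adjusted p = 0.0049), PRPS1 (-0.28), PRPS2 (-0.25) and PGD (-0.23). TKT and PRPS1 passed in all 6 fits that leave out 1 library, PRPS2 in 3 and PGD in 2 of them.

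In the serine branch MTHFD1L, the mitochondrial formate enzyme, was the only 1 of 8 tested genes that passed (log2 fold change -0.45), beside 28.2% of all tested genes. PHGDH, the first enzyme of the branch, was at 12.9, 4.09 and 4.73 FPKM in the controls against 15.3, 15 and 13.8 FPKM in IGF2BP1-KD libraries, and was named after its values had been seen. It did not pass with all 6 libraries (log2 fold change 1.02, SE 0.50, edgeR adjusted p = 0.216), and without IGF2BP1-NC replicate 1 its log2 fold change was 1.71 (edgeR adjusted p = 4.7e-08).

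Of the genes of glycogen and glucose synthesis, 3 of 10 and 3 of 4 tested genes passed, beside 28.2% of all tested genes. The glycogen count is thus near the share over all genes. In the glycogen list UGP2, which makes UDP-glucose, fell by 0.42 on the log2 scale and PGM2 by 0.28, while GAA, the lysosomal glucosidase, rose by 1.03 from a level of 0.809 ± 0.244 FPKM. In the gluconeogenesis list PCK1 (log2 fold change 1.56, below 1 FPKM in every library) and G6PC3 (0.29, passing in 1 of the 6 fits that leave out 1 library) were higher. SLC37A4, the glucose 6-phosphate transporter of the endoplasmic reticulum, fell from 27.1 ± 2.43 to 17.9 ± 3.00 FPKM (SD, n = 3, log2 fold change -0.61).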

How the data were processed

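RNA-seq counts of 6 libraries, 3 per group by their labels, were analysed. Per the submitters' processing notes and the supplementary methods, the authors used Trimmomatic for trimming, HISAT2 for mapping to GRCh38 and HTSeq for counting per gene. The deposited counts are not normalized. The strand setting, annotation release and tool versions are not given in the sources used here. The deposited FPKM values (Cufflinks) equal counts over gene length and library total (median deviation 5.4e-09% at most), so they are no separate measurement. There, 27 symbols were stored as dates, and rows were matched by gene ID.

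Counts were tested in R 4.3.3 with edgeR 4.0.16 (TMM, filterByExpr, robust glmQLFit, glmQLFTest, two-sided, Benjamini-Hochberg over 11994 genes, threshold 0.05). The scripts were checked on simulated counts. Total counts of 16885449 to 18112179 and a biological coefficient of variation of 9.55% set the precision. A count of 0 allows up to 3 counts. Alternatives were DESeq2 1.42.0, limma 3.58.1 (voom, and log2(FPKM + 1) or + 0.1 with a mean of at least 1 or no filter), other scalings and filters, a replicate block and each library left out. Isozyme shares were tested in scipy 1.17.1. Positions are from GENCODE release 44 and promoters from RefSeq (GRCh38.p14).

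The 10 genes, 10 further lists and 4 marker lists were chosen with earlier results of these data known. Named were the 10 genes, IGF2BP1, isozymes of their steps and, per list, up to 4 called genes with the largest rise and 4 with the largest fall. Other genes (ACTB, ARRDC4, DDIT4, EGLN2, GPI, HIF1A, P4HA1, PGAM1, PHGDH, PSAT1, SLC2A14, SLC16A1, TPI1, TXNIP and single markers) were named after their values had been seen. Some genes of these lists are not reported here.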

Additional observations from a re-analysis of the deposited data

How the results depend on the processing

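Over 170 alternative values of the log2 fold changes of the 10 genes, 156 stayed on their side of the threshold, 7 lost it (all HK2), 7 gained it and 0 changed sign. The number of the 10 genes called lower was 2 to 7 with 1 library left out (7 without IGF2BP1-NC replicate 1) and the number called higher 0 to 1, with 1 in DESeq2. Over all genes, 1146 (without IGF2BP1-KD replicate 2) to 2062 were lower. The labels do not say whether the replicate numbers pair the libraries. The deviations of same-numbered libraries correlated at -0.052, 0.036 and -0.11 across genes. With a replicate block 1413 genes were higher and 1500 lower, GAPDH and ENO1 passed and HK2 did not (edgeR adjusted p = 0.0537). The block lowered the calls from 3 to 1 for lactate handling and from 4 to 1 for reference genes. With limma on log2(FPKM + 1) without a filter HK2 was lost (adjusted p = 0.0781), and calls were 3 for pyruvate entry, 0 for the serine branch, 4 for HIF targets and 1 for reference genes. Upper-quartile factors gave 2 for the serine branch. With 1 library left out, calls ranged over 1 to 3 for lactate handling (1 whichever IGF2BP1-KD library was left out), 3 to 6 for pyruvate entry (3 without IGF2BP1-KD replicate 2 or 3), 2 to 4 for the pentose phosphate pathway (2 without IGF2BP1-NC replicate 2), 1 to 3 for the serine branch (3 without IGF2BP1-NC replicate 1), 4 to 9 for HIF targets (4 without IGF2BP1-NC replicate 2 or 3) and 0 to 4 for reference genes (0 without IGF2BP1-KD replicate 3). The difference in the share of PKM in pyruvate kinase, 4.33 percentage points, ranged from -0.103 without IGF2BP1-KD replicate 3 to 6.69. The cause of these shifts was not tested. Of 821 values of 49 other named genes, 89 lost and 6 gained the threshold and 5 changed sign, all of genes that did not pass with all 6 libraries. With 1 library left out, the log2 fold change of TXNIP ranged from -0.072 (without IGF2BP1-NC replicate 3) to 0.98, that of HIF1A from -0.022 to 0.097 (-0.011 and -0.022 without IGF2BP1-NC or IGF2BP1-KD replicate 2) and that of SLC16A1 from -0.039 to 0.016 (without IGF2BP1-NC replicate 1), and with upper-quartile factors that of SLC16A1 was 0.013.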
